A study of Mus musculus with 20 samples.

Results

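The 8 lipid droplet protein genes described here are the perilipins Plin1, Plin2, Plin3 and Plin4, the fat-specific protein gene Cidec, the lipase inhibitor gene G0s2, and the droplet formation genes Fitm2 and Bscl2. They were taken by gene name from the 33581 genes of the deposited tables, and all 8 were found in each of the 5 tables. RNA-seq was made from 3T3-L1 cells, a mouse fibroblast line that becomes fat-storing adipocytes after hormonal induction. Cells carried a lentiviral SMARTvector hairpin against Tcf7l2 (shTcf7l2), a transcription factor of the Wnt pathway, or a scrambled hairpin (shScr). Both arms were infected at passage 2, selected with puromycin as mixed populations, and sampled at days 0, 2, 4, 6 and 8 of differentiation in media to which a thiazolidinedione was not routinely added. There were 2 libraries per arm and day, so 10 groups and 20 libraries. With 1 knockdown hairpin named in the labels of these libraries, what the hairpin or its vector does besides cannot be told apart from loss of Tcf7l2. Separate cultures are not stated for the 2 libraries of a group. The p-values therefore measure only how far these libraries spread, which may be technical.

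A lipid droplet is a core of triglyceride and sterol ester inside a single layer of phospholipid that carries proteins. It is built at the endoplasmic reticulum, where the seipin protein (from Bscl2) shapes the nascent droplet and the FIT2 protein (from Fitm2) binds triglyceride and aids its storage. Perilipins coat the surface and govern the access of lipases, and the coat changes as a fat cell matures: perilipin 2 and perilipin 3 are found in most cells, perilipin 4 coats small nascent droplets, and perilipin 1 is the main coat of the large adipocyte droplet. The Cidec protein lets droplets exchange and fuse their lipid, and the G0s2 protein inhibits adipose triglyceride lipase, the enzyme of the Pnpla2 gene. In fat cells, Plin1, Plin4, Cidec and G0s2 are known targets of PPARgamma.

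The 8 genes lie on 7 chromosomes in the GRCm38 annotation, since Plin3 and Plin4 are both on chromosome 17. The deposited files were made on the mm9 build, so every coordinate here comes from the GRCm38 reference and none from the files. Plin4 (ENSMUSG00000002831) spans chr17:56100591-56109803 and Plin3 (ENSMUSG00000024197) spans chr17:56277476-56292873. Plin1 (ENSMUSG00000030546) spans chr7:79720218-79732903, Plin2 (ENSMUSG00000028494) chr4:86648386-86670060, Cidec (ENSMUSG00000030278) chr6:113424634-113435760, Fitm2 (ENSMUSG00000048486) chr2:163466379-163472629 and G0s2 (ENSMUSG00000009633) chr1:193272161-193273217. These 7 genes are on the minus strand, and Bscl2 (ENSMUSG00000071657) is on the plus strand at chr19:8837467-8848683. RefSeq start sites of the GRCm38.p6 build give the sequences shown, each covering the 250 bases before the start. They are the promoters of Plin1 and Cidec, the pair with the closest profiles over the libraries, of Plin4, the gene with the smallest p-value, and of Plin2, a perilipin that differed less. Capitals mark matches to the 3 motifs searched on both strands. The motifs were a C/EBP site (TTNNGCAA, no mismatch), a PPAR direct repeat (2 copies of AGGTCA with 1 base of any kind between them, up to 2 mismatches) and a Tcf/Lef site (CTTTGAT, no mismatch). The Plin1 promoter is chr7:79732777-79733026 on the minus strand, the second Cidec promoter is chr6:113434765-113435014 on the minus strand, the Plin4 promoter is chr17:56109783-56110032 on the minus strand, and the Plin2 promoter is chr4:86670060-86670309 on the minus strand.
Plin1: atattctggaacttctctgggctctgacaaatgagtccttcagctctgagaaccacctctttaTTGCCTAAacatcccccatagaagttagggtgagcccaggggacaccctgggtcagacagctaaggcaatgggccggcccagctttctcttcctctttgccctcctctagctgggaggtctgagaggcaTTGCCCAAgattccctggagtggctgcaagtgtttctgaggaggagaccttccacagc
Cidec: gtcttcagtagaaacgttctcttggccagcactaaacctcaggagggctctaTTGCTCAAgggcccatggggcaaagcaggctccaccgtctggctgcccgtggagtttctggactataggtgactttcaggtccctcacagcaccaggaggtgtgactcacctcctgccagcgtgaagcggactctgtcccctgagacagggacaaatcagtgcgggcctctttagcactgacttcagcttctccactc
Plin4: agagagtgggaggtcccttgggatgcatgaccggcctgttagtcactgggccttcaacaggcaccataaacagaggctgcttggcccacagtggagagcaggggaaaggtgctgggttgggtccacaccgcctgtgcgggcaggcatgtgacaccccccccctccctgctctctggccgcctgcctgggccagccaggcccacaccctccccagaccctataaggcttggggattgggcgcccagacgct
Plin2: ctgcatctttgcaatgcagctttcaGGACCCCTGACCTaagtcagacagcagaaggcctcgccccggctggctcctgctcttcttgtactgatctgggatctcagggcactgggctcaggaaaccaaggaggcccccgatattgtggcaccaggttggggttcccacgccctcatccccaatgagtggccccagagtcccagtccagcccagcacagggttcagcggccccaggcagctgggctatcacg

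The Plin1 promoter held 2 C/EBP matches, at positions -187 to -180 and -58 to -51 from the start site, and the second Cidec promoter held 1 at -198 to -191. The first Cidec promoter, chr6:113435761-113436010, is not printed and matched none of the 3 motifs. The second lies within the span of the Cidec gene. In all, 2 of the 8 genes had a C/EBP match in any of their listed promoters. Of 32851 single promoters of this length, 9.56% had one. Members are counted by gene and the background by promoter, and Cidec and Bscl2 have several, so the shares are not in the same unit. A PPAR repeat match was found in 1 of the 8, in Plin2 at -225 to -213 with 2 mismatches, against 3.24% of all promoters. All of these matches read on the strand opposite to the printed letters. None of the 8 held the Tcf/Lef letters, which 3.21% of all promoters held. The Plin4 promoter is shown with no capitals because none of the 3 motifs matched there. These matches describe letters within 250 bases, not binding.

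Totals ranged from 20153362 to 33973608 reads per library, so 3 reads correspond to 0.0883 to 0.149 RPM. RPM, the level used below, is the whole reads recovered from the deposited values over the library total, times 1000000. Tcf7l2 was lower in shTcf7l2 cells on every day. At day 0 its level was 13.9 and 23.4 RPM in shTcf7l2 cells, against 41.9 and 59.0 RPM in shScr cells, and over the 5 days it averaged a log2 difference of -1.36 (SE 0.09, limma adjusted p = 2.61e-08). The shScr libraries numbered 2 of days 4, 6 and 8 stood apart from the other late libraries. The 2 shScr libraries of a day differed across genes with an SD of 0.453, 0.490 and 0.598 on the log2 scale at days 4, 6 and 8, and the 2 shTcf7l2 libraries with an SD of 0.230, 0.233 and 0.263. The average differences of the 8 genes that these 3 libraries bear on, and the counts over 5 days of the droplet, regulator, adipocyte and preadipocyte lists, are given with and without them. Leaving out these 3 keeps the shTcf7l2 libraries numbered 2 of the same days, so the late arms no longer hold the same numbers. Without all 6 late libraries numbered 2, the average log2 differences were -1.12 for Plin4, -0.96 for Plin1, -1.21 for Cidec and -0.84 for G0s2. They were -0.72 for Fitm2, -0.24 for Bscl2, -0.17 for Plin2 and -0.12 for Plin3. The fitted differences compare log2 values that the authors stabilised for low counts, so they understate the change of genes at low levels. The floor of these values was highest at day 2. On recovered reads (limma voom) the averages were -2.75 for G0s2, -2.18 for Cidec, -1.88 for Plin1, -1.09 for Bscl2 and -1.46 for Plin4. At day 2, Plin1 was -1.84 on reads against -1.27 on the deposited values, and Tcf7l2 -1.34 against -1.04. Sizes are thus not strictly comparable between genes or days.

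Over the 5 days, 5 of the 8 genes were lower in shTcf7l2 cells (limma with day as a factor, adjusted p under 0.05), and none was higher. Among all 16497 genes tested, 13.2% were called lower and 12.3% higher, 25.4% in all. The 5 were Plin4, Plin1, Fitm2, Cidec and G0s2, with average log2 differences of -1.46 to -1.09 for Plin4, Plin1 and Fitm2 and of -1.76 and -1.73 for Cidec and G0s2. Bscl2, Plin2 and Plin3 did not pass the test. The median of the 8 log2 differences was -1.24, against -0.003 for all genes tested. The 5 genes stayed called without the 3 late shScr libraries numbered 2, with a median over the 8 genes of -0.65, in a fit that called 20.7% of all genes. With the replicate number as a block 7 of the 8 were lower, where 35.9% of all genes were called. The fit of the average treats an arm's 10 libraries as independent samples, and they may stem from 1 selected population.

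The 10 adipocyte marker genes moved with these results: 9 of the 10 were lower in shTcf7l2 cells over the 5 days, with a median log2 difference of -1.39; without the 3 late shScr libraries numbered 2 it was 8 of the 10, with a median of -0.82. Their summed level at day 8 was 2539 and 4011 RPM in shTcf7l2 cells, against 6615 and 26519 RPM in shScr cells, and from day 4 none of the 10 was at 0 reads in any library. Of 9 preadipocyte and fibroblast markers, 5 were higher and 1, Pdgfra, was lower, and their summed level at day 8 was 26350 and 28819 RPM in shTcf7l2 cells, against 23344 and 17312 RPM in shScr cells. Without those 3 libraries 3 of the 9 were higher, Ly6a, Col1a1 and Vim, and Pdgfra was lower. Among all genes tested with all libraries, 13.2% were lower and 12.3% higher over the 5 days. Without those 3 libraries 20.7% of all genes were called in either direction. Pparg and Cebpa are in both the adipocyte list and the list of regulators below. The part of the adipocyte or the preadipocyte list in the droplet gene results was not tested. In bulk RNA, fewer cells of a type and less RNA per cell cannot be told apart. Of the macrophage markers, Ptprc had at most 0.129 RPM, Emr1 was at 0 reads throughout, and Csf1r and Cd68 had at most 1.33 and 1.29 RPM, but Itgam was present in every library at 10.5 to 18.9 RPM (median 15.2). The endothelial marker Kdr had at most 0.124 RPM, and the muscle markers Myod1 and Ckm were at 0 reads throughout. None of the 5 macrophage, 3 endothelial and 4 muscle genes was called (5 were tested); in the fit blocked by replicate number the muscle gene Des was (adjusted p = 0.0381). The summed level at day 8 of the muscle list, which is nearly all Des, was 8.30 and 11.3 RPM in shTcf7l2 cells, against 12.9 and 37.7 RPM in shScr cells. The endothelial list summed to 0.575 and 0.423 RPM at day 8 in shTcf7l2 cells, against 1.12 and 0.566 RPM in shScr cells. The summed macrophage level at day 8, most of it Itgam, was 15.2 and 20.1 RPM in shTcf7l2 cells, against 12.8 and 12.2 RPM in shScr cells.

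**Figure D1:**
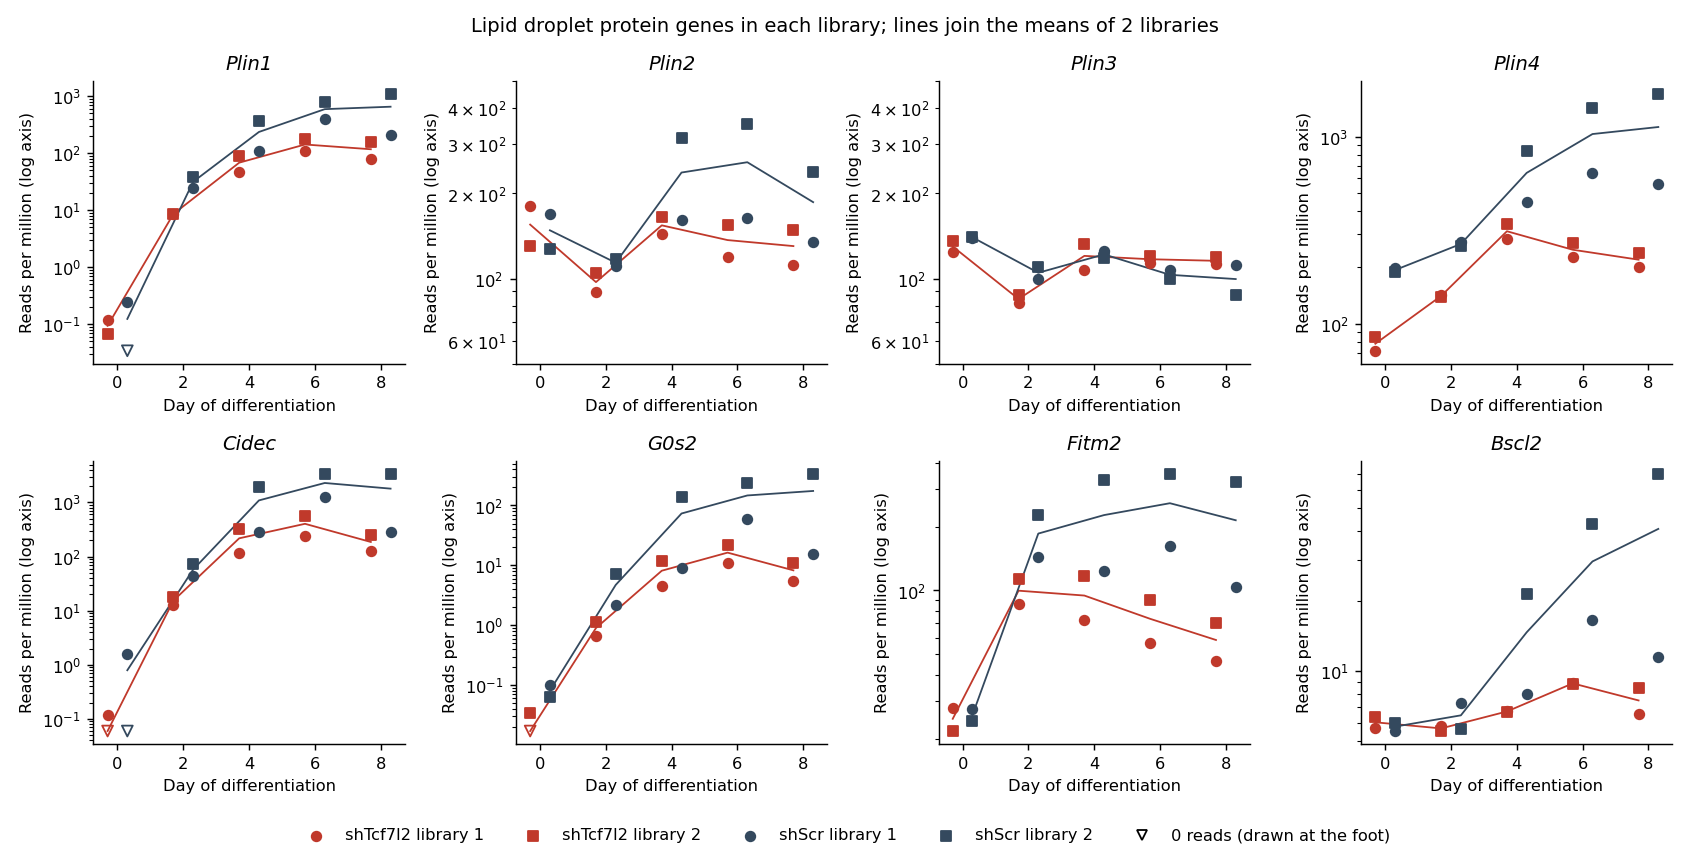
Level of each of the 8 genes in each library in RPM on a log axis, by day of differentiation, with shTcf7l2 libraries in red and shScr libraries in dark blue, circles for libraries numbered 1, squares for those numbered 2, and lines through the means of 2 libraries. At day 8, Plin4 lay at 200.2 and 239.5 RPM in shTcf7l2 cells, below both shScr libraries at 559 and 1690.4 RPM, and Plin3 stayed between 82.1 and 140.2 RPM in all libraries.

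Plin4, the coat gene of small nascent droplets, was the member with the smallest p-value of the average difference. At day 0 it was at 71.7 and 84.7 RPM in shTcf7l2 cells, against 199 and 188 RPM in shScr cells. Day 2 values were 142 and 139 RPM in shTcf7l2 cells, against 272 and 261 RPM in shScr cells. Both shTcf7l2 libraries thus lay well under both shScr libraries while the 2 libraries of each arm were close to each other.

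At day 4 Plin4 was at 284 and 339.6 RPM in shTcf7l2 cells, against 447 and 832 RPM in shScr cells. Day 6 values were 228 and 269 RPM in shTcf7l2 cells, against 636 and 1427 RPM in shScr cells. At day 8 the levels were 200.2 and 239.5 RPM in shTcf7l2 cells, against 559 and 1690.4 RPM in shScr cells. The groups did not overlap on any day, and in the shTcf7l2 arm both libraries were highest at day 4, while in the shScr arm library 1 was highest at day 6 and library 2 at day 8.

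Averaged over the days, the log2 difference was -1.46 (SE 0.23, limma adjusted p = 0.000262), and it lay between -1.56 and -1.28 with any 1 library left out. Without the 3 late shScr libraries numbered 2 it was -1.06 (SE 0.10, adjusted p = 4.68e-06).

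In the limma fit of all 10 groups with all libraries and no replicate block, Plin4 was the only member called on single days. Its log2 difference was -1.97 (SE 0.48, limma adjusted p = 0.0388) at day 6 and -2.19 (SE 0.48, adjusted p = 0.0205) at day 8, where 1.44% and 2.35% of all genes tested were called lower. The day 6 call was lost with any 1 of 15 libraries left out (adjusted p up to 0.420), and the day 8 call with either shTcf7l2 library of day 8 or the shScr library numbered 2 of day 8 left out (up to 0.218). Without that shScr library the day 8 difference was -1.32. At day 0 the log2 difference was -1.29 (SE 0.48, adjusted p = 0.530), at a spread shared by all 10 groups; with the 3 late shScr libraries numbered 2 left out of that spread the difference was the same and its SE was 0.14 (adjusted p = 0.00199). At day 2 it was -0.87 (SE 0.48, adjusted p = 1.00), and without those 3 libraries its SE was 0.14 (adjusted p = 0.0166). Those 3 libraries were left out after seeing the data, which lowered the shared spread. In limma fits of 1 day alone the adjusted p of Plin4 was 0.303 at day 0 and 0.0280 at day 2. With the replicate number as a block in the limma fit of all 10 groups it was 0.182 and 0.449. In the authors' deposited table, Plin4 was lower at day 0 with a log2 fold change of -1.10 (adjusted p = 1.63e-07). Of its neighbours on chromosome 17 at day 0, on the log2 scale Ubxn6 differed by 0.08, Dpp9 by 0.07, Fem1a by -0.02, Ticam1 by -0.13 and Plin3 by -0.13. Plin5, the next perilipin gene beside Plin4, had at most 0.147 RPM in any library and was not tested.

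Plin1, which encodes the coat protein of the mature adipocyte droplet, was nearly silent before induction. At day 0 it had 3 and 2 reads in shTcf7l2 cells, against 5 and 0 reads in shScr cells, which does not allow a fold. At day 2 it was at 8.62 and 8.53 RPM in shTcf7l2 cells, against 24.7 and 38.3 RPM in shScr cells. It had 47.7 and 88.5 RPM at day 4 in shTcf7l2 cells, against 107 and 363 RPM in shScr cells. All 4 libraries were above those of day 2. Plin1 at day 6 reached 109.5 and 174 RPM in shTcf7l2 cells, against 403 and 779 RPM in shScr cells. From day 2 onward the groups did not overlap. Within number 1 the shTcf7l2 level was 34.9%, 44.4% and 27.2% of shScr at days 2, 4 and 6, and within number 2 it was 22.3%, 24.4% and 22.3%.

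At day 8 Plin1 was at 78.9 and 155 RPM in shTcf7l2 cells, against 209.6 and 1094 RPM in shScr cells. The shScr library numbered 1 was thus at 19.2% of the one numbered 2, and the shTcf7l2 level was 37.7% and 14.2% of shScr within numbers 1 and 2.

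The average log2 difference of Plin1 was -1.39 (SE 0.34, limma adjusted p = 0.00776), and -0.82 (SE 0.21, adjusted p = 0.0127) without the 3 late shScr libraries numbered 2. On single days the adjusted p was 0.0965 at day 8 and higher earlier, while with the replicate number as a block Plin1 was called at days 6 and 8 (adjusted p = 0.0150 and 0.0112).

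Plin2, which encodes the perilipin of small droplets in most cell types, differed less. Its level at day 0 was 181 and 129.9 RPM in shTcf7l2 cells, against 169 and 127 RPM in shScr cells, so the arms overlapped. Day 2 had 89.9 and 104 RPM in shTcf7l2 cells, against 110.4 and 117 RPM in shScr cells, and day 4 had 144 and 165 RPM in shTcf7l2 cells, against 161 and 314 RPM in shScr cells. By day 6 it was 119 and 155 RPM in shTcf7l2 cells, against 164 and 352 RPM in shScr cells, and at day 8 it was 112 and 149 RPM in shTcf7l2 cells, against 134 and 238 RPM in shScr cells. The groups were apart at days 2 and 6 and overlapped at days 0, 4 and 8. Averaged over the days, Plin2 had a log2 difference of -0.41 (SE 0.18, limma adjusted p = 0.0929); with the replicate number as a block it was called (adjusted p = 0.0246). Without the 3 late shScr libraries numbered 2 it was -0.09 (SE 0.09, adjusted p = 0.512).

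Plin3, the perilipin found across tissues, passed the test on no day. At day 2 it was at 82.1 and 87.3 RPM in shTcf7l2 cells, against 99.4 and 110.2 RPM in shScr cells, lower in both. At day 8 it was at 112 and 119 RPM in shTcf7l2 cells, against 111 and 87.8 RPM in shScr cells, higher in both, though library 1 of each arm differed by under 1 RPM (112.3 and 111.4). Before induction it was at 124 and 135 RPM in shTcf7l2 cells, against 139.7 and 140.2 RPM in shScr cells, and at day 4 the arms overlapped, at 108 and 133 RPM in shTcf7l2 cells, against 125 and 119 RPM in shScr cells. Day 6 had the same order as day 8, with 113 and 121 RPM in shTcf7l2 cells, against 107 and 99.3 RPM in shScr cells. The log2 differences were -0.27 (SE 0.12, limma adjusted p = 0.951) at day 2 and 0.17 (SE 0.12, adjusted p = 0.419) at day 8. The change of effect from day 0 was 0.28 (SE 0.18, limma voom adjusted p = 0.684) at day 6 and 0.31 (SE 0.18, adjusted p = 0.835) at day 8, and neither passed the test. Its average log2 difference was -0.02 (SE 0.06, adjusted p = 0.803).

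The 4 perilipins can be set side by side as reads per exon length, using the GENCODE M21 exons. At day 0, Plin4 made up 12.8% and 16.8% of the summed perilipin reads per exon length in shTcf7l2 cells, against 28.8% and 30.8% in shScr cells. At day 6, Plin1 made up 18.6% and 23.4% in shTcf7l2 cells, against 31.9% and 31.0% in shScr cells. The share of Plin1 overlapped between arms at day 8, where it was 15.01% and 22.5% in shTcf7l2 cells, against 21.5% and 38.0% in shScr cells.

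The ratio of Plin1 to Plin2 per exon length sets the gene of the adipocyte coat against that of the general coat. It was 0.0724 and 0.0617 at day 2 in shTcf7l2 cells, against 0.169 and 0.247 in shScr cells. At day 6 it was 0.694 and 0.851 in shTcf7l2 cells, against 1.86 and 1.67 in shScr cells, and at day 8 it was 0.534 and 0.787 in shTcf7l2 cells, against 1.18 and 3.47 in shScr cells. From day 6 Plin2 thus outweighed Plin1 in all 4 shTcf7l2 libraries and Plin1 outweighed Plin2 in all 4 shScr libraries, and the 2 shScr libraries of day 6 were close to each other in this ratio. Plin2 and Plin3 together held 54.4% and 49.6% of the perilipin reads per exon length at day 8 in shTcf7l2 cells, against 32.3% and 14.7% in shScr cells. Exon lengths come from all annotated transcripts of a gene, which these cells need not use alike, and the shares carry no test.

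**Figure D2:**
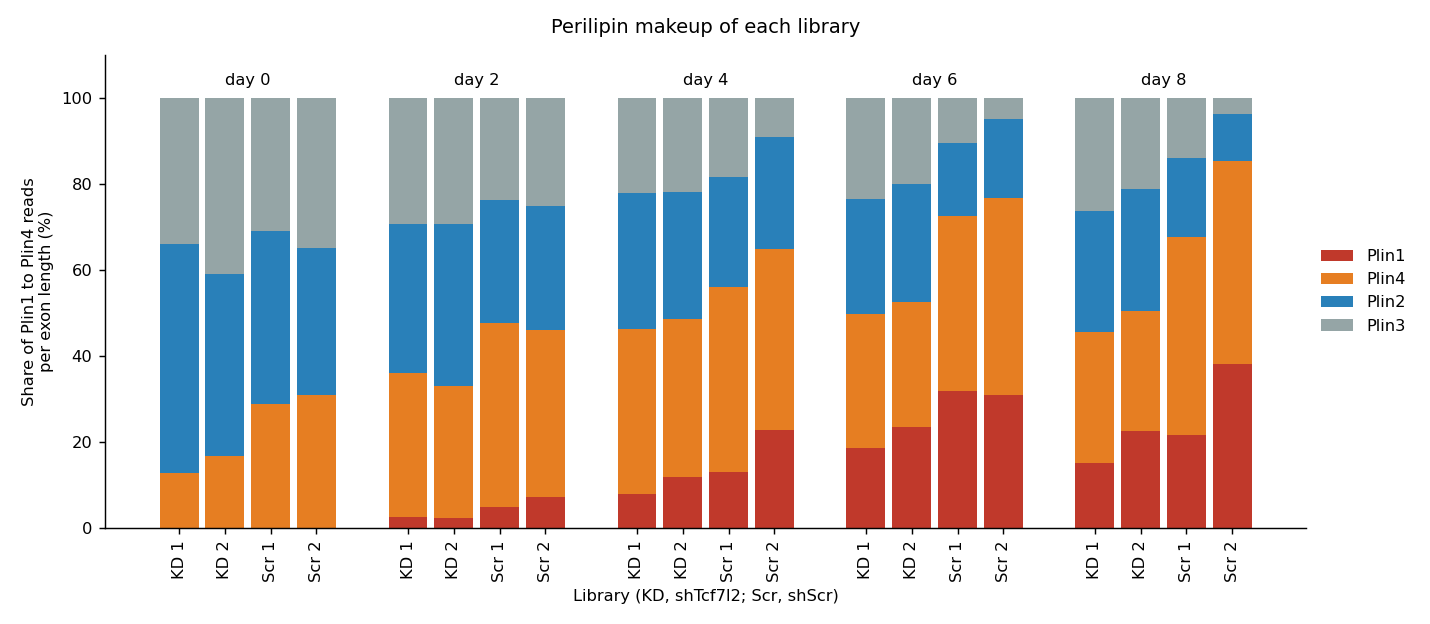
Share of each of Plin1, Plin4, Plin2 and Plin3 in their summed reads per exon length, in percent, for each library, grouped by day with the shTcf7l2 libraries (KD) left of the shScr libraries (Scr). At day 6 the Plin1 share was 18.6% and 23.4% in shTcf7l2 cells, against 31.9% and 31.0% in shScr cells.

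Cidec, the gene of the droplet fusion protein, had few or no reads before induction. It had 3 and 0 reads at day 0 in shTcf7l2 cells, against 32 and 0 reads in shScr cells. Cidec at day 2 was at 12.5 and 18.1 RPM in shTcf7l2 cells, against 43.0 and 71.9 RPM in shScr cells. At day 4 it was at 118 and 316 RPM in shTcf7l2 cells, against 286 and 1892 RPM in shScr cells, and the groups overlapped. They were apart again afterwards. Cidec at day 6 was at 245 and 560.5 RPM in shTcf7l2 cells, against 1240.0 and 3330.5 RPM in shScr cells.

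At day 8 Cidec was at 125 and 247 RPM in shTcf7l2 cells, against 279 and 3314 RPM in shScr cells. Both shTcf7l2 libraries lay below both shScr libraries, but the shScr library numbered 1 held only 22.5% of its day 6 level, while the one numbered 2 held 99.5%. In the shTcf7l2 libraries numbered 1 and 2 the day 8 level was 51.0% and 44.0% of that at day 6.

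The average log2 difference was -1.76 (SE 0.46, limma adjusted p = 0.0118), and -0.96 (SE 0.27, adjusted p = 0.0208) without the 3 late shScr libraries numbered 2. Per exon length, Cidec was the highest of the 8 genes at days 4, 6 and 8 by the mean of both arms, at 217 ± 120.3 RPM per kilobase of exon at day 6 in shTcf7l2 cells and 1231 ± 796 in shScr cells (SD, n = 2 each).

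G0s2, whose product holds back the lipase of Pnpla2, had at most 2 reads per library at day 0. At day 2 it was at 0.663 and 1.13 RPM (19 and 33 reads) in shTcf7l2 cells, against 2.19 and 7.24 RPM in shScr cells. Day 4 had 4.47 and 11.8 RPM in shTcf7l2 cells, against 9.05 and 138 RPM in shScr cells. The shScr libraries were thus already far apart. G0s2 at day 6 was at 10.8 and 21.8 RPM in shTcf7l2 cells, against 58.7 and 235 RPM in shScr cells. At day 8 it was at 5.47 and 11.1 RPM in shTcf7l2 cells, against 15.7 and 334 RPM in shScr cells. The groups were apart at days 2, 6 and 8, and at day 0 with those few reads, and overlapped at day 4, and the 2 shScr libraries of day 8 lay further apart than the arms did within number 1.

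Over the 5 days G0s2 had an average log2 difference of -1.73 (SE 0.55, limma adjusted p = 0.0306). That call was lost with any 1 of 7 libraries left out, namely the shTcf7l2 libraries numbered 1 of days 4, 6 and 8 and numbered 2 of days 6 and 8, and the shScr libraries numbered 2 of days 4 and 6 (adjusted p up to 0.0635). Without all 3 late shScr libraries numbered 2 it was -0.68 (SE 0.21, adjusted p = 0.0338).

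Fitm2, which encodes the triglyceride-binding protein of the endoplasmic reticulum, was present before induction. At day 0 it was at 27.9 and 21.7 RPM in shTcf7l2 cells, against 27.5 and 24.2 RPM in shScr cells, so the arms overlapped. Fitm2 at day 2 was at 86.0 and 114 RPM in shTcf7l2 cells, against 144 and 227 RPM in shScr cells. It was at 72.9 and 116 RPM at day 4 in shTcf7l2 cells, against 123 and 330.0 RPM in shScr cells. Those were lower than at day 2 in shTcf7l2 and shScr library 1, and higher in library 2 of each arm. Fitm2 at day 6 was at 56.6 and 90.4 RPM in shTcf7l2 cells, against 162 and 354 RPM in shScr cells. From day 2 on the groups did not overlap. The shTcf7l2 libraries numbered 1 and 2 had their highest levels at days 2 and 4, and both shScr libraries at day 6.

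At day 8 Fitm2 was at 46.4 and 70.5 RPM in shTcf7l2 cells, against 104 and 325 RPM in shScr cells. The average log2 difference was -1.09 (SE 0.27, limma adjusted p = 0.00905), and -0.61 (SE 0.16, adjusted p = 0.0149) without the 3 late shScr libraries numbered 2. A 227-base stretch, 5.72% of the Fitm2 exons, overlaps the antisense gene 2310001K24Rik, which had at most 0.403 RPM.

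Bscl2, the seipin gene, was low and stood level until day 2. At day 0 it was at 5.70 and 6.37 RPM in shTcf7l2 cells, against 5.56 and 6.01 RPM in shScr cells. Day 2 had 5.83 and 5.54 RPM in shTcf7l2 cells, against 7.30 and 5.62 RPM in shScr cells, and day 4 had 6.72 and 6.71 RPM in shTcf7l2 cells, against 7.95 and 21.4 RPM in shScr cells. So 1 shScr library of day 4 moved away from the rest. At day 6 it was at 8.88 and 8.85 RPM in shTcf7l2 cells, against 16.5 and 42.6 RPM in shScr cells, and at day 8 it was at 6.52 and 8.46 RPM in shTcf7l2 cells, against 11.5 and 69.96 RPM in shScr cells. The shTcf7l2 libraries stayed within 5.54 to 8.88 RPM over all 5 days, and the groups were apart from day 4 on. The average log2 difference was -0.79 (SE 0.30, limma adjusted p = 0.0589); it was called with the replicate number as a block (adjusted p = 0.0450), and also with the shScr library numbered 1 of day 4 (0.0438) or of day 8 (0.0337) left out. Without the 3 late shScr libraries numbered 2 it was -0.24 (SE 0.08, adjusted p = 0.0541). Exons of Gng3 on the opposite strand cover 398 bases of the Bscl2 exons (6.75%), and Gng3 had at most 1.37 RPM; those of AC129217.1 on the same strand cover 239 bases (4.05%), and it had at most 0.471 RPM. The library kit does not mark strand, so reads of overlapping genes cannot be told apart.

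On single days, both shTcf7l2 libraries lay below both shScr libraries for 3, 7, 4, 7 and 6 of the 8 genes at days 0, 2, 4, 6 and 8. Among all genes tested that share was 16.4%, 22.5%, 21%, 26.8% and 23.1%. The 3 at day 0 were Plin4, Plin3 and G0s2, the last with at most 2 reads per library. Both shTcf7l2 libraries lay above both shScr libraries for Plin3 alone at days 6 and 8, as they did for 27.4% and 22.4% of all genes. In the tests of single days, 0 of the 8 genes were called at days 0, 2 and 4 (limma) and 1 each at days 6 and 8. All genes were called in 0.224%, 0.267%, 1.61%, 4.12% and 5.75% at days 0, 2, 4, 6 and 8. At an unadjusted p under 0.05 there was 1 of the 8 each at days 0, 2 and 4, and 6 each at days 6 and 8. Of all 16497 genes, 1058, 828, 1675, 3957 and 3856 were under it at days 0, 2, 4, 6 and 8. The authors' deposited DESeq2 tests had an adjusted p under 0.05 for more members. These were Plin4 at day 0, Plin1, Plin4, Cidec, Fitm2 and G0s2 at day 2, and Plin1 at day 4. At day 6 they were all but Plin2 and Plin3, and at day 8 Plin1, Plin4, Fitm2 and Bscl2, all lower in shTcf7l2 cells. The share of all genes in those tests is not given here.

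The replicate number as a block raised the limma counts of single days, as it did those of all genes, of which 18% were called at day 6 and 17.1% at day 8. At day 6 it called 5 members, Fitm2 (adjusted p = 0.0123), Plin1 (0.0150), Plin4 (0.0162), Cidec (0.0288) and Plin2 (0.0445). At day 8 it called Plin4 (0.0103), Plin1 (0.0112), Fitm2 (0.0115), Cidec (0.0275) and G0s2 (0.0441), and at days 0, 2 and 4 it called none, where 0.8%, 0.776% and 3.1% of all genes were called. Single libraries moved these counts too, and those of all genes with them. Without the shScr library numbered 1 of day 8, 6 members were called at day 8 (Plin1, Plin4, Cidec, Fitm2, Bscl2 and G0s2) and 4 at day 6 (Plin1, Plin4, Fitm2 and Bscl2), where 22.8% and 10.8% of all genes were called. Those 4 were also called at day 6 without the shScr library numbered 2 of day 8, a fit that called 10.9% of all genes at that day, and Plin2, Plin4 and Fitm2 without the shScr library numbered 1 of day 6, which called 14.1%.

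A change of the effect from day 0 was tested with limma voom on the recovered reads. Of all 16497 genes, 0% passed at days 2, 4, 6 and 8, with 386, 522, 937 and 765 genes at an unadjusted p under 0.05; without the shScr library numbered 1 of day 8 it was 0.212% at day 8, with none of the 8 among them. With all libraries and no replicate block none of the 8 passed, and none had an unadjusted p under 0.05. For Plin4 the change was -0.64 (SE 0.62, adjusted p = 0.734) at day 6 and -0.86 (SE 0.62, adjusted p = 0.835) at day 8, and for Fitm2 it was -1.69 (SE 0.84, adjusted p = 0.684) at day 6. The replicate block passed none of the 8 either. With it the unadjusted p was under 0.05 for Fitm2 at days 4, 6 and 8, Plin2 at day 6 and Bscl2 at day 8. The Fitm2 change at day 6 was then -1.69 (SE 0.42, limma voom adjusted p = 0.253).

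**Figure D3:**
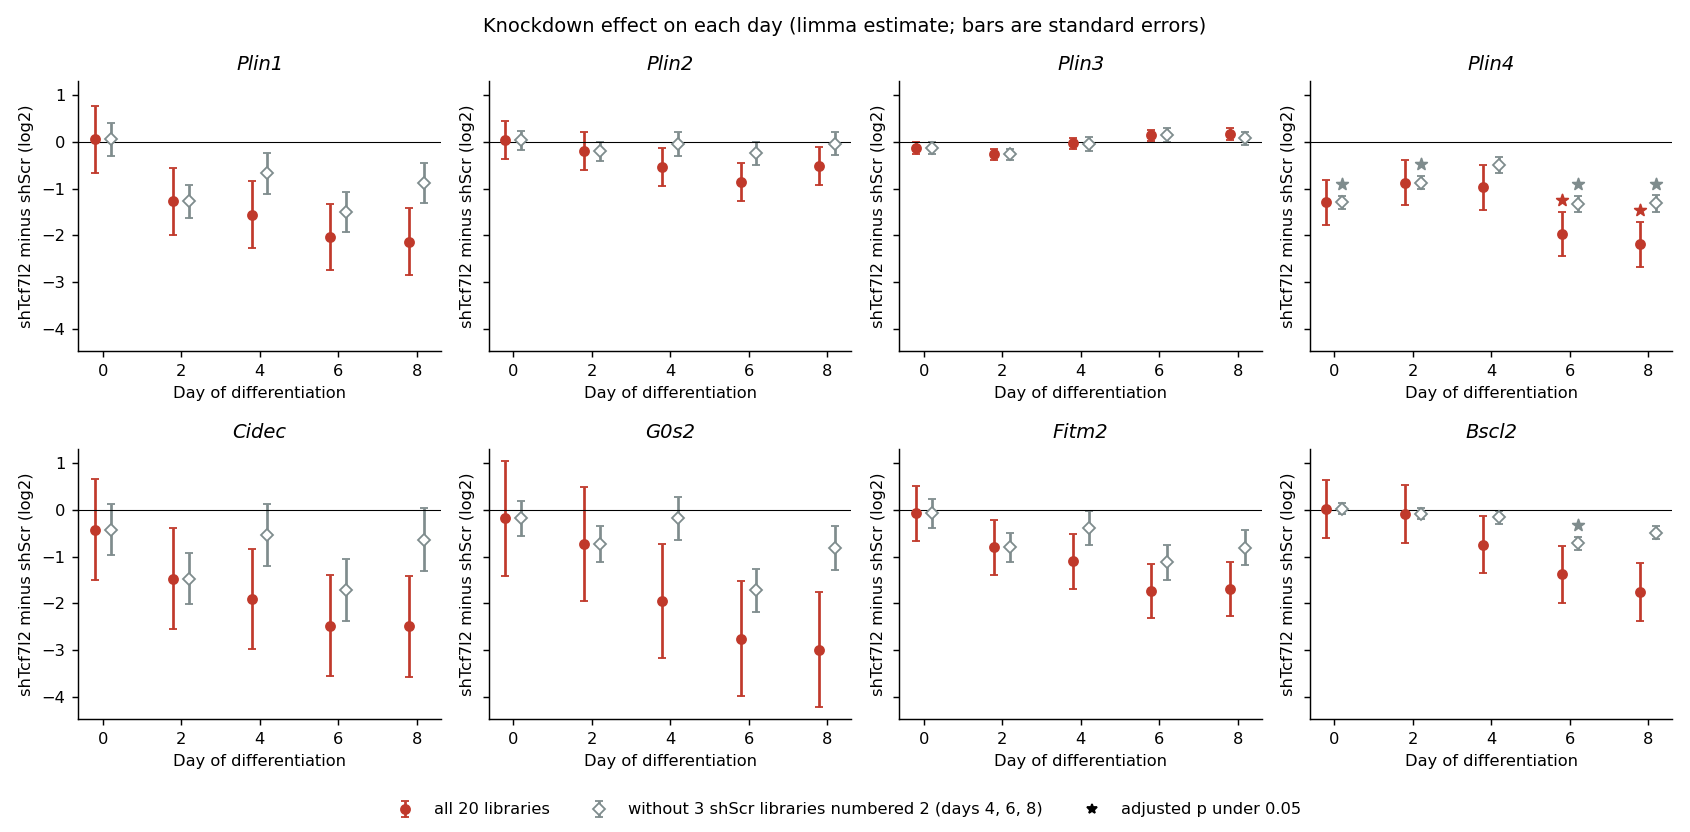
Log2 difference of shTcf7l2 minus shScr cells on each day with its standard error from limma, for all 20 libraries in red and without the 3 late shScr libraries numbered 2 in grey, with stars at an adjusted p under 0.05. With all libraries Plin4 alone has stars, at -1.97 and -2.19 for days 6 and 8, and without the 3 libraries the day 8 differences of Plin1 and Cidec are -0.88 and -0.64. The grey fit keeps the shTcf7l2 libraries numbered 2. Without all 6 late libraries numbered 2, which is not drawn, the day 8 differences of Plin1 and Cidec are -1.36 and -1.12.

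The time course within each arm was tested with limma voom on the recovered reads. In shTcf7l2 cells Fitm2 rose by day 2 with a log2 change of 2.15 (SE 0.59, adjusted p = 0.0256) and Plin3 fell by 0.48 (SE 0.12, adjusted p = 0.0185). These 2 of the 8 compare with 15.3% of all genes. In shScr cells Fitm2 rose by day 2 with a log2 change of 2.89 (SE 0.60, adjusted p = 0.00396), and Plin1 and Cidec rose too (adjusted p = 0.0195 and 0.0400). These 3 of the 8 compare with 24.6% of all genes. Since Plin1 and Cidec had 0 to 32 reads per library at day 0, their calls are given without a fold.

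By day 4 the log2 change of Plin4 was 2.08 (SE 0.43, adjusted p = 0.0175) in shTcf7l2 cells and 1.72 (SE 0.45, adjusted p = 0.0259) in shScr cells. Plin1 was also called in shTcf7l2 cells at day 4 (0.0403), and Fitm2, Plin1 and Cidec in shScr cells, where 3.1% and 13.8% of all genes were called. At day 6, 0 members were called in shTcf7l2 cells (limma voom), where 0.582% of all genes were called. At an unadjusted p under 0.05 there were 4 of the 8, and 1905 of all 16497 genes. In shScr cells 5 were called at day 6, as were 18% of all genes: Fitm2, Plin4, Plin1 and Cidec were higher than at day 0, and Plin3 was lower with a log2 change of -0.41 (SE 0.12, adjusted p = 0.0393). At day 8, 0 were called in shTcf7l2 cells, where 0.673% of all genes were called, and the same 5 in shScr cells, where 10.5% were. In shTcf7l2 cells at day 8, 3 of the 8 and 1797 of all genes had an unadjusted p under 0.05.

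With any 1 library left out, the call that stayed in all 20 cases was that of Fitm2 at day 2 in shScr cells. The other calls in shScr cells were each lost without 1 or both shScr libraries of day 0, and many without the shScr library numbered 2 of the day compared (adjusted p up to 0.312, for Plin3 at day 8). In shTcf7l2 cells, Fitm2 at day 2 and Plin4 at day 4 were lost without any 1 of the 4 libraries compared (up to 0.156), Plin3 at day 2 without 3 of its 4 (up to 0.128), and Plin1 at day 4 without any 1 of 14 libraries (up to 0.256).

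With the replicate number as a block, 4, 4, 4 and 3 members were called in shTcf7l2 cells at days 2, 4, 6 and 8, where 28.9%, 9.41%, 6.24% and 5.29% of all genes were called. In shScr cells the block called 4, 5, 8 and 7, where it called 39.3%, 34.3%, 37.4% and 30.3% of all genes. Without the 3 late shScr libraries numbered 2, which enter the shared spread, 5, 5, 5 and 3 were called in shTcf7l2 cells, where 25.4%, 9.24%, 5.5% and 3.97% of all genes were called. Plin3 was then no longer called in shScr cells at days 6 and 8 (limma voom adjusted p = 0.101 and 0.219). A call in 1 arm and not in the other does not show that the arms differ, and the test of that difference is the change of effect given above.

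The profiles of the 8 genes over the 20 libraries were compared by Pearson's r on log2(RPM + 1), as a description, since the libraries share arms, days and a common course of differentiation. Plin1 and Cidec were the most alike pair of the 8 (r = 0.992, and 0.993 and 0.992 within the 10 shTcf7l2 and the 10 shScr libraries). Plin4 had r = 0.844 with Plin1, 0.860 with Cidec and 0.925 with G0s2. Plin2 had r = 0.463 with Plin1 over all libraries, 0.0492 within shTcf7l2 libraries and 0.574 within shScr libraries. Plin3 ran against Plin1 in shScr libraries (r = -0.774) and had r = 0.0283 with it in shTcf7l2 libraries.

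Among all tested genes with a name, the 3 most like Plin1 were Cidec, the fatty acid transporter Cd36 (r = 0.991) and Arxes2 (0.984). Those most like Cidec were Plin1, Arxes2 (0.988) and the fatty acid carrier Fabp4 (0.987). Those most like Plin4 were Pxmp4, a peroxisomal membrane protein gene (0.973), Napepld (0.965) and Aldh6a1 (0.964). Those most like G0s2 were Agpat2, an enzyme of triglyceride synthesis (0.985), Nat8l (0.983) and the mitochondrial citrate carrier Slc25a1 (0.983). For Fitm2 they were Pank3 (0.979), Car5b (0.978) and Fam83a (0.977), and for Bscl2 Fsd2 (0.984), Nrg4 (0.977) and Lrtm1 (0.977). The nearest profiles to Plin2 were less close, Aqp11 (0.932), Tbc1d13 (0.931) and Apba3 (0.928), as were those to Plin3, Trnp1 (0.917), Smyd2 (0.907) and Stx3 (0.900).

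Of 34 other genes of lipid droplet proteins and lipid storage, 31 passed the filter on low levels, and over the 5 days 11 were lower and 1 was higher in shTcf7l2 cells, where 13.2% of all genes were lower and 12.3% higher. The median log2 difference of the 31 was -0.23, against -0.003 for all genes tested. Plin5, Cidea and Fitm1, the droplet genes of brown fat, muscle and heart, were not tested, with at most 0.147, 0.330 and 0.330 RPM. Dgat2, which makes the last step to triglyceride, had an average log2 difference of -1.77 (SE 0.44, limma adjusted p = 0.00886). Lipe, hormone-sensitive lipase, had -1.36 (SE 0.34, adjusted p = 0.00912), Pnpla2, the lipase that G0s2 inhibits, had -1.27 (SE 0.33, adjusted p = 0.0115), and Abhd5, its co-activator, had -0.57 (SE 0.17, adjusted p = 0.0217).

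Pnpla2 at day 6 was at 211 and 432 RPM in shTcf7l2 cells, against 750.4 and 1806 RPM in shScr cells. At day 0 it was the other way round, at 17.9 and 23.3 RPM in shTcf7l2 cells, against 13.4 and 14.5 RPM in shScr cells. Lss, a sterol synthesis gene, had an average log2 difference of -0.57 (adjusted p = 0.0156), and the membrane fusion and trafficking genes Snap23 and Rab7 had -0.16 (adjusted p = 0.0290) and -0.15 (adjusted p = 0.0304).

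Spg20, the spartin gene, was the one higher, with an average log2 difference of 0.35 (SE 0.07, adjusted p = 0.00248). Its level at day 8 was 109 and 120.3 RPM in shTcf7l2 cells, against 85.3 and 59.4 RPM in shScr cells. With the replicate number as a block 14 were lower, and without the 3 late shScr libraries numbered 2 it was 5, of which Dgat2, Lipe, Pnpla2, Lss and Abhd5 were all of them (adjusted p = 0.00863 to 0.0472). The median of the 31 was then -0.09, and the log2 differences were -0.97 for Dgat2, -0.74 for Lipe, -0.75 for Pnpla2, -0.30 for Abhd5 and -0.30 for Lss. The blocked fit called 35.9% of all genes in either direction, and the fit without the 3 libraries called 20.7%.

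Among 12 regulators of droplet and adipocyte genes, 8 were lower in shTcf7l2 cells over the 5 days and none was higher, with Tcf7l2 itself as 1 of the 8. Among all genes tested, 13.2% were lower and 12.3% higher. Pparg and Cebpa are also among the adipocyte markers above. Pparg, the nuclear receptor that drives fat cell formation, had an average log2 difference of -1.29 (SE 0.27, limma adjusted p = 0.00276), and its partner Rxra had -0.45 (SE 0.07, adjusted p = 0.000186). Pparg was apart before induction, at 21.7 and 17.2 RPM in shTcf7l2 cells, against 32.6 and 30.4 RPM in shScr cells at day 0. At day 8 it was at 43.6 and 59.2 RPM in shTcf7l2 cells, against 112 and 397 RPM in shScr cells.

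Cebpa, a C/EBP factor of adipocytes, had -1.41 (SE 0.33, adjusted p = 0.00546), Nr1h3, the LXRalpha receptor, had -1.06 (SE 0.27, adjusted p = 0.0096), and Klf15 had -1.26 (SE 0.40, adjusted p = 0.0300). Ppard had -0.53 (SE 0.12, adjusted p = 0.00366) and Ppara -0.35 (SE 0.12, adjusted p = 0.0465), although Ppara was at most 2.43 RPM in any library. The other 4 did not pass. The average fit without the 3 late shScr libraries numbered 2 called 20.7% of all genes in either direction. Without the 3 late shScr libraries numbered 2 the count was 6, with Klf15 (adjusted p = 0.0501) and Ppara (0.190) no longer called, and the log2 differences were -0.80 for Pparg, -0.84 for Cebpa and -0.57 for Nr1h3.

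**Figure D4:**
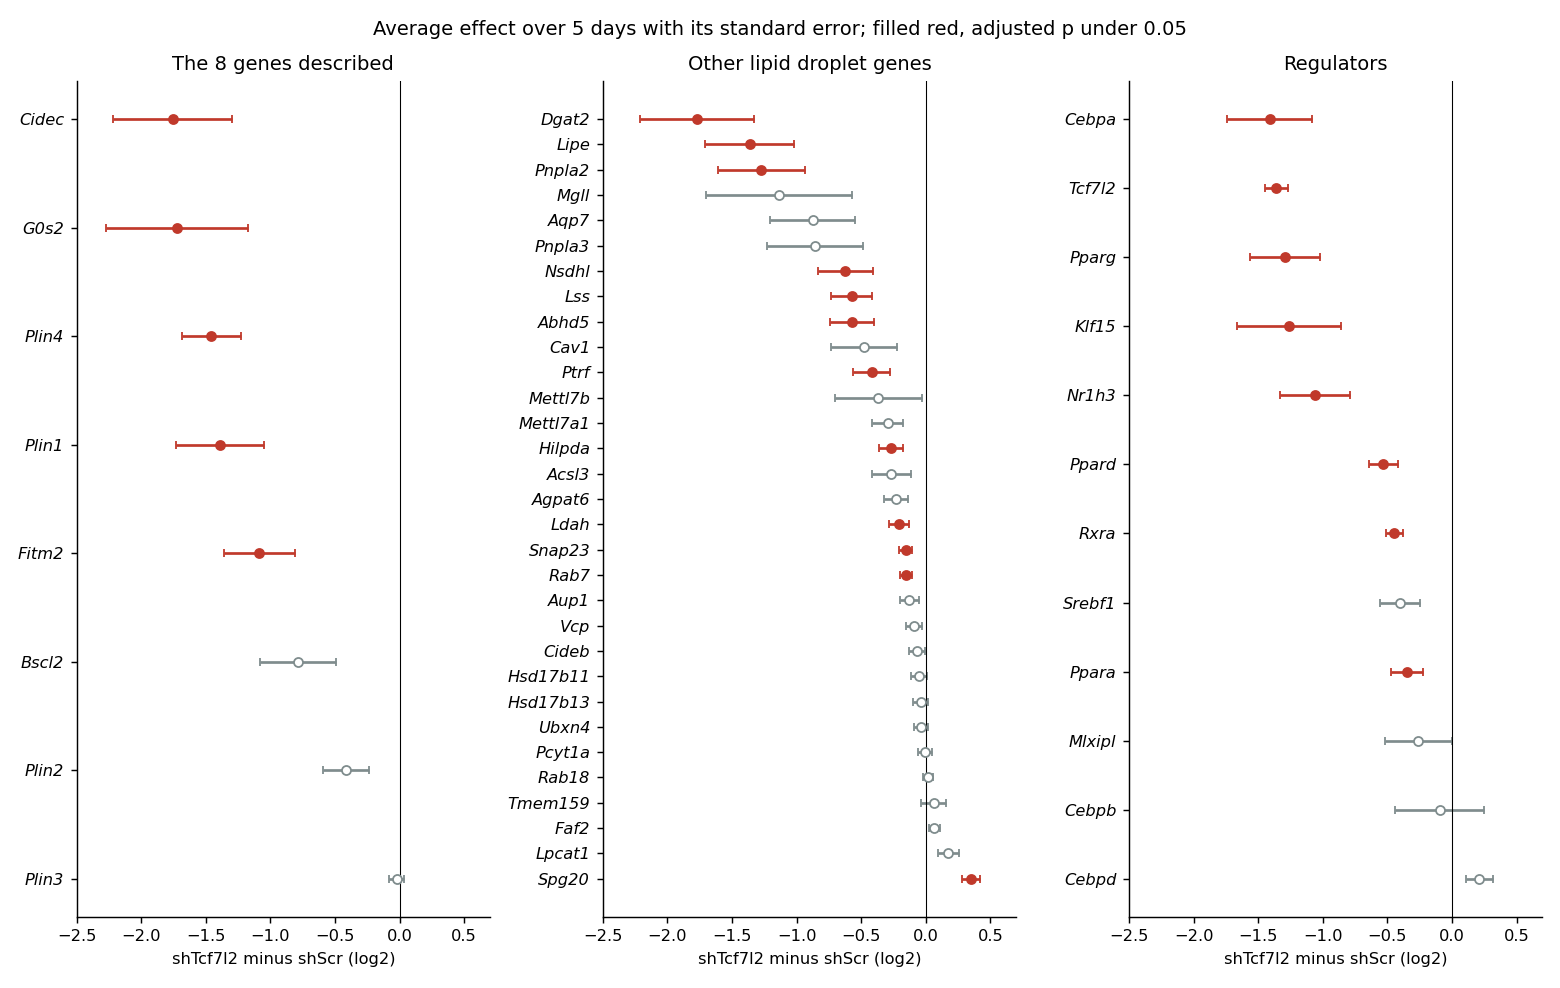
Average log2 difference of shTcf7l2 minus shScr cells over the 5 days with its standard error from limma, for the 8 genes, the 31 other droplet genes tested and the 12 regulators, with an adjusted p under 0.05 in filled red. Cidec, at -1.76, and Dgat2, at -1.77, lie furthest to the left, Spg20 at 0.35 is the one red point right of 0, and Plin3 lies at -0.02.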

How the data were processed

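RNA-seq libraries were made with the TruSeq RNA Sample Prep Kit V2, which does not mark strand. Per the submitters' processing notes, the tools were TopHat2 2.0.13, Bowtie2 2.2.3.0, SAMtools and DESeq2 1.10.1 on the mm9 build; which counter and annotation were used is not given in the sources used here. Each day has 1 table. The 5 deposited tables hold for 33581 genes the authors' variance-stabilised log2 values of 4 libraries, the mean normalised count (a signal value), and the authors' log2 fold change, test statistic (a score), p-value and adjusted p-value. The tables were normalised separately, and the floor of the log2 values runs from 5.00 to 6.94.

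Inverting the deposited log2 values gave whole reads in 100% of the values checked (within 0.02 reads, up to 100 reads), and the mean normalised counts returned to within a relative difference of 5.51e-06. RPM are these reads over the library total, times 1000000, and 0 library columns were left unused. For differences within a day, limma 3.58.1 (trend and robust options, statmod 1.5.0, R 4.3.3) was fitted to the deposited log2 values. A gene entered when its mean normalised count reached 10 on any day, which left 16497. The fits used means of the 10 groups (10 residual degrees of freedom) or day as a factor (14). Changes over time crossed tables and used limma voom on the recovered reads with size factors over all 20 libraries. Adjusted p-values are Benjamini-Hochberg over all genes tested, with a threshold of 0.05, and all tests are two-sided. The scripts were tested on simulated data.

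Libraries with the same number deviated together on each day (correlations of deviations from group means across genes 0.783, 0.702, 0.551, 0.537 and 0.468 at days 0, 2, 4, 6 and 8). The number was therefore used as a block in an alternative fit and for comparisons within a number. The main fits, which give the main counts, do not use this pairing. The labels do not say what a number marks. Genes named beside the 8 are the 8 with the smallest adjusted p of the average effect in each of the lists of other droplet genes and of regulators, and the 3 closest profiles of each member; neighbours of Plin4, overlapping genes and markers are named as such. The members and lists were chosen with earlier results of these data known. Alternatives were other filters, scalings, weights and count models in limma, the replicate block, a fit per table, each library left out, and, chosen after seeing the data, leaving out late libraries numbered 2. Promoters are from RefSeq on GRCm38.p6, exon lengths from GENCODE M21.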

Additional observations from a re-analysis of the deposited data

How the results depend on the processing

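Counts are of the 8 genes called. Other fits call other shares of all genes: for the effect at day 6, 4.12% in the main fit and 18% with the replicate block. Where the share of all genes in a fit is not given, its count cannot be read as a result about the members. Of the effects by day and the average (0, 0, 0, 1, 1 and 5 called), none moved by over 1.5 times with quantile scaling, median centring, no trend or robust option, another filter on low values, a 1.5-fold minimum or recovered reads. A separate fit per table called 2 at day 2 (Plin1 and Plin4), 0 at day 6 and 0 at day 8. The replicate block called 5 at day 6 and 5 at day 8, and with recovered reads 1 at day 4, 7 at day 6 and 6 at day 8; over the 5 days it called 7. Without the 3 late shScr libraries numbered 2, 1 was called at day 0, 1 at day 2 and 2 at day 6; without all 6 late libraries numbered 2 the counts were 1, 1 and 4. The cause of these shifts was not tested. For the time course in shTcf7l2 cells (2, 2, 0 and 0 called at days 2, 4, 6 and 8), the replicate block called 4, 4, 4 and 3. There, log2(RPM + 1) called 4 at day 2, 2 at day 6 and 2 at day 8, library totals called 1 at day 6, a 1.5-fold minimum called 1 at day 2, and a filter at 50 called 1 at day 4. Without the 3 libraries the counts were 5, 5, 5 and 3, and without the 6 they were 5, 5, 4 and 2. In shScr cells (3, 4, 5 and 5 called) the replicate block called 8 at day 6, and day 2 had 6 without the 3 libraries and 5 without the 6. The block changed no other call of a count by over 1.5 times. With any 1 library left out, the lone library of its group is assumed to vary like the others; 0 to 4 were called at day 6, 0 to 6 at day 8 and 4 to 6 on average, 0 to 0 at days 0, 2 and 4 and for the change of effect. For the time course the ranges were 0 to 4, 0 to 3, 0 to 2 and 0 to 2 in shTcf7l2 cells and 1 to 3, 0 to 4, 0 to 7 and 0 to 7 in shScr cells. Among the values given in the report, those that turned sign were uncalled: Plin3 at day 4 was 0.0086 with quantile scaling and 0.00083 with median centring, its average was 0.022 with quantile scaling, and the change of the Plin4 effect at day 8 was 0.012 without the 3 libraries. With 1 library left out, the log2 ranges at day 0 were -0.19 to 0.29 for Plin1, -0.20 to 0.27 for Plin2, -1.02 to 0.17 for Cidec, -0.24 to 0.081 for Fitm2 and -0.025 to 0.071 for Bscl2. They were -0.17 to 0.0079 for Bscl2 at day 2, -0.18 to 0.13 for Plin3 at day 4 and -0.050 to 0.0062 for its average, and -0.18 to 0.13 for Plin3 at day 4 against day 0 in shTcf7l2 cells. The change of the Plin4 effect ran from -1.29 to 0.00015 at day 6 and from -1.73 to 0.0091 at day 8. Some fitted changes that the report leaves out, uncalled in either fit, turned sign too: the change of the Cidec effect was 0.85, 0.83, 0.24 and 0.29 at days 2, 4, 6 and 8 with the replicate block, against -0.46, -0.54, -1.11 and -1.11 without it, and the change of the G0s2 effect at day 4 was 1.36 without the 3 libraries, against -0.63 with them. With 2 libraries per group and 0 to 32 reads of Plin1, Cidec and G0s2 per library at day 0, depth limits any fold of these genes against day 0.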
